A study of Mus musculus with 8 samples.

Results

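The endothelial junction and Tie receptor genes Pecam1, Cdh5, Cldn5, Tek and Tie1 were read by 6 probe sets of the Mouse 430 2.0 array, of 45101 on each array, as markers of how much vessel RNA the forebrain dissections held. The probe sets were taken by identifier, 2 of them for Cdh5 and 1 for each other gene, and the rule that lists them uses no measured value, although the genes were picked with earlier results of these arrays known. The samples were microdissected mouse forebrains of embryonic day 9.5 on a C57Bl/6 background, 4 arrays from wild type embryos and 4 from VEGF120 embryos, which carry a knock-in of the VEGF120 cDNA at the VEGF-A gene and lack the other isoforms, VEGF164 among them. The knock-in is not described as limited to a cell type, so it is shared by vessels and neuroepithelium. The labels do not say whether an array came from 1 embryo or a pool, so the spread behind each p-value may hold technical as well as biological variation.

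Endothelial cells line every blood vessel and are held together by adherens and tight junctions. VE-cadherin, encoded by Cdh5, is the cadherin of their adherens junctions, PECAM-1 (CD31), encoded by Pecam1, is an adhesion molecule at their borders that platelets and some leukocytes also carry, and claudin-5, encoded by Cldn5, forms their tight junctions and is best known from the blood-brain barrier. TIE2, encoded by Tek, is the receptor for the angiopoietins, and TIE1 is a related receptor that acts together with it. In the early mouse embryo vessels first surround the neural tube and then sprout into it, a step guided by VEGF-A.

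For none of the 5 genes did the difference between the genotypes pass limma's test or the exact permutation test. The 95% intervals of Cldn5 and Tek, the tightest, reached from 1.46-fold and 1.40-fold lower in VEGF120 to 1.17-fold and 1.23-fold higher. Their lower limits, -0.545 and -0.480 in log2, moved to -0.661 and -0.602 without VEGF120 replicate 4. After centring each array on its median they were -0.641 and -0.582. Of the 6 probe sets, 2 had a higher mean in VEGF120 and 4 a lower one, where 57.3% of all 27022 probe sets tested had a higher one. Their median difference was -0.12 in log2(signal + 16), beside 0.04 over all tested probe sets. That median rested on single arrays, being -0.27 without VEGF120 replicate 4 and -0.02 without VEGF120 replicate 2. With all 8 arrays on the deposited scaling, 0 of the 6 had an unadjusted limma p under 0.05, beside 9.79% of all tested probe sets. Cdh5 1422047_at lay below the brightness filter and is not among the 27022 tested. Of those tested, 6.37% were higher at that p and 3.42% lower. This split depended on the scaling: the arrays' median signals did not overlap, at 56.1 to 59.6 in wild type and 62.3 to 68.5 in VEGF120, and centring each array on its median turned 1722 higher and 923 lower probe sets into 607 and 3100, where quantile normalization gave 1175 and 1131. Centring moved the median of the 6 to -0.25 and that of all tested probe sets to -0.08. It left Pecam1 at 0.17 and Cdh5 1433956_at at 0.12. The other differences became -0.21 for Tek, -0.28 for Cldn5, -0.34 for Tie1 and -0.87 for Cdh5 1422047_at. The last had an unadjusted limma p of 0.045 and an adjusted p of 0.455. After quantile normalization its unadjusted limma p was 0.04997 and its adjusted p 0.690. The arrays of the genotypes overlapped for all 6, against 5.01% of all tested probe sets without overlap. After Benjamini-Hochberg adjustment limma called 0 of the 27022, at a smallest adjusted p of 0.459. A change in the number of endothelial cells and a change in RNA per endothelial cell cannot be told apart in such bulk samples. None of the 6 is among the 330 probe sets of the authors' deposited table of differences. That table holds few of the 45101 probe sets and was made from PLIER summaries, so nothing is read from the absence.

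VEGF120 replicate 4 stood apart from the other arrays in measures of the whole array. It lay farthest out on the first principal component of all tested probe sets, at 44.6 against 1.68 to 22.9 for the other VEGF120 arrays. That component also separated the genotypes, since all wild type arrays were negative and all VEGF120 arrays positive. Wild type replicates 3 and 4, at -35.1 and -37.3, lay apart from replicates 1 and 2, at -3.85 and -1.92. The 3′ to 5′ log2 ratio of the β-actin controls rises when transcripts are broken or labelled over a shorter stretch. It was 0.693 on VEGF120 replicate 4, with 0.305 to 0.430 in wild type and 0.349 to 0.413 on the other VEGF120 arrays. The Gapdh control ratio was also highest there, at -0.0431 against -0.375 to -0.258 on the other 7 arrays. The difference and the correlations of each of the 6 probe sets are therefore given also without that array.

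Among the junction genes, Pecam1 (1421287_a_at) had signals of 43.3, 89.4, 50.1 and 53.0 on wild type arrays 1 to 4 and 91.3, 60.6, 52.1 and 97.2 on VEGF120 arrays 1 to 4. The ranges overlapped widely, since wild type replicate 2 came close to VEGF120 replicates 1 and 4, and the remaining 5 arrays lay between 43.3 and 60.6. On the log2 scale the mean of wild type was 6.19 ± 0.36 and that of VEGF120 6.48 ± 0.36 (SD, n = 4 arrays each), so VEGF120 differed by 0.29 ± 0.25 (limma SE), which is 1.22-fold. Its 95% interval ran from 1.20-fold lower to 1.79-fold higher in VEGF120 (limma adjusted p = 0.706, exact permutation p = 0.20, two-sided). Without VEGF120 replicate 4 the difference was 0.17.

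Cdh5 was measured by a brighter and a dimmer probe set. The brighter one (1433956_at) read 130, 117, 112 and 125 in wild type and 133, 116, 112 and 257 in VEGF120. Of these 8 signals 7 lay between 112 and 133, and VEGF120 replicate 4 stood well above them. The means were 7.09 ± 0.09 and 7.34 ± 0.51 (log2 signal, SD, n = 4 arrays each), so VEGF120 differed by 0.25 ± 0.22 (SE), with an interval from 1.18-fold lower to 1.65-fold higher (limma adjusted p = 0.712, exact permutation p = 0.514). Without VEGF120 replicate 4 this difference was -0.01, so its direction rested on that array. The other 3 VEGF120 arrays lay close together: the SD of VEGF120 fell to 0.118 without that array, against 0.0855 in wild type.

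The dimmer Cdh5 probe set (1422047_at) read 37.6, 37.6, 57.9 and 23.9 in wild type and 51.4, 19.6, 5.02 and 5.36 in VEGF120. VEGF120 replicates 2, 3 and 4 lay below every wild type array, while VEGF120 replicate 1 was the second highest of all 8. With a mean signal of 29.8 it fell under the brightness filter, at 39.8 the 40th percentile of mean signal, and was fitted without the filter. Its difference was -0.74 ± 0.38 (SE, log2 signal; limma adjusted p = 0.642, exact permutation p = 0.171), with an interval from 2.98-fold lower to 1.06-fold higher. It was -0.55 without VEGF120 replicate 4 and -1.10 without VEGF120 replicate 1. The latter had an unadjusted limma p of 0.00635 and an adjusted p of 0.364. The size also moved with the value added before the logarithm, from -0.31 with 64 added to -1.43 with 1 added.

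The Cdh5 probe sets thus gave means of opposite direction. Within an array, the log2 ratio of 1422047_at to 1433956_at was taken after 16 was added to each signal. It averaged -1.34 ± 0.43 for wild type and -2.33 ± 1.08 for VEGF120 (SD, n = 4 arrays each). The difference of -0.99 did not pass the test (exact permutation p = 0.171). The size of that difference follows the value added before the logarithm, since the dimmer probe set had signals down to 5.02: it was -1.70 with 1 added and -0.51 with 64 added. In VEGF120 the ratio ranged from -1.15 on replicate 1 to -3.68 on replicate 4, the array where the brighter probe set was at its highest and the dimmer one close to its lowest. Without VEGF120 replicate 4 the difference was -0.54 (exact permutation p = 0.286), and without VEGF120 replicate 1 it was -1.38 (exact permutation p = 0.0286, the smallest that 4 against 3 arrays can give).

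Cldn5 (1417839_at) read 401, 450, 354 and 411 in wild type and 394, 260, 310 and 523 in VEGF120. The VEGF120 arrays held the highest reading and the 2 lowest, and wild type lay inside that range. The means were 8.71 ± 0.14 and 8.55 ± 0.42 (log2 signal, SD, n = 4 arrays each), so VEGF120 differed by -0.16 ± 0.18 (SE), which is 1.11-fold lower. The interval ran from 1.46-fold lower to 1.17-fold higher (limma adjusted p = 0.779, exact permutation p = 0.457). Without VEGF120 replicate 4 the difference was -0.33, at an unadjusted limma p of 0.0506 and an adjusted p of 0.631.

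**Figure D1:**
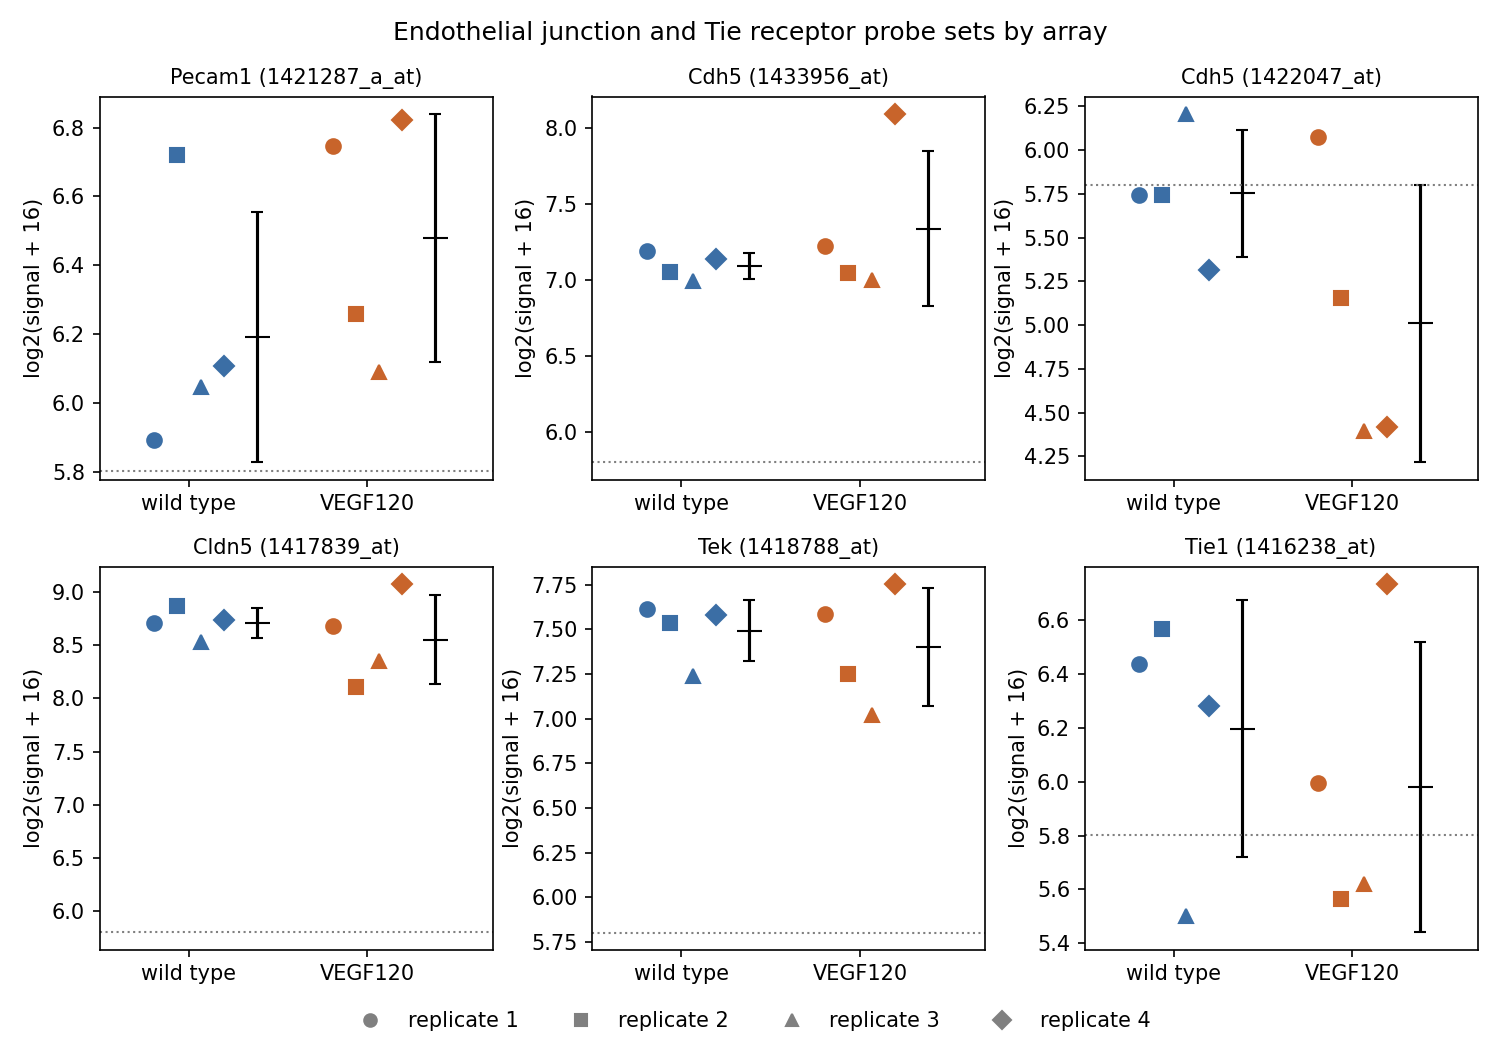
Log2(signal + 16) of each probe set on each array, in wild type (blue) and VEGF120 (orange), with marker shapes for the replicate number, means and SD (n = 4) as black bars, and the brightness filter as a dotted line. VEGF120 replicate 4, the orange diamond, is the highest array for 5 of the 6 probe sets and among the lowest for 1422047_at.

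Of the receptors, Tek (1418788_at) read 180, 169, 135 and 175 in wild type and 176, 136, 114 and 200 in VEGF120. The 8 arrays spanned 1.76-fold in all, and both the highest and the lowest were VEGF120. The means were 7.49 ± 0.17 and 7.40 ± 0.33 (log2 signal, SD, n = 4 arrays each), so VEGF120 differed by -0.09 ± 0.18 (SE; limma adjusted p = 0.881, exact permutation p = 0.686). The difference was -0.21 without VEGF120 replicate 4 and turned to 0.04 without VEGF120 replicate 3.

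Tie1 (1416238_at) read 70.6, 78.6, 29.4 and 61.8 in wild type and 47.9, 31.4, 33.1 and 90.3 in VEGF120. Wild type replicate 3 was the lowest of all and VEGF120 replicate 4 the highest, so the genotypes spanned nearly the same range. The means were 6.20 ± 0.48 and 5.98 ± 0.54 (log2 signal, SD, n = 4 arrays each), so VEGF120 differed by -0.22 ± 0.32 (SE; limma adjusted p = 0.83, exact permutation p = 0.571), with an interval from 1.87-fold lower to 1.38-fold higher. It was -0.47 without VEGF120 replicate 4 and -0.45 without wild type replicate 3. The probe set lay just above the brightness filter, at percentile 48.1 of mean signal, and the low arrays were under it.

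**Figure D2:**
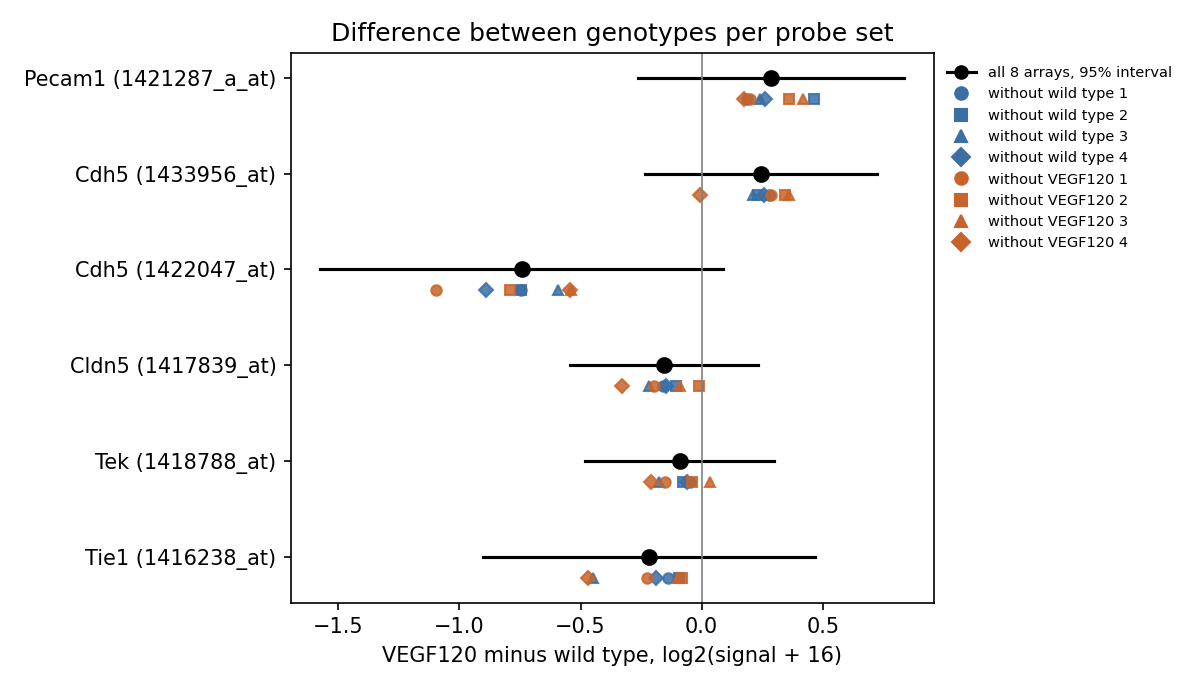
Difference between the means of VEGF120 and wild type per probe set in log2(signal + 16), with all 8 arrays (black, line for the 95% limma interval) and with each array left out (coloured). All 6 intervals include 0, and the orange diamond, without VEGF120 replicate 4, is the lowest left-out value for 5 probe sets.

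VEGF120 arrays were more scattered than wild type arrays for 5 of the 6 probe sets. The SD of log2 signal was 3.05 times as large in VEGF120 for Cldn5, 5.98 times for Cdh5 1433956_at, 2.18 times for Cdh5 1422047_at and 1.93 times for Tek, but 1.13 times for Tie1 and 0.991 times for Pecam1. Over all tested probe sets the median ratio was 1.16, above that of Tie1, and 58.9% had the larger SD in VEGF120. Without VEGF120 replicate 4 the ratio was 2.08 for Cldn5, 1.67 for Tek, 1.38 for Cdh5 1433956_at, 2.32 for Cdh5 1422047_at, 0.937 for Pecam1 and 0.493 for Tie1. The median ratio over all tested probe sets was then 1.05. The difference in scatter was not tested.

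Tek, Tie1 and Cldn5 had the 3 highest Pearson correlations of the 15 pairs. After adjustment 2 of these 3 passed the threshold of 0.05 by Pearson's r and 1 by Spearman's rho. Across the 8 arrays Pearson's r was 0.885 between Tie1 and Cldn5 (exact permutation p = 0.00126, 0.019 after Benjamini-Hochberg adjustment over the 15 pairs of probe sets), and Spearman's rho was 0.905 (exact p = 0.00456, adjusted 0.0342). Between Tek and Tie1 r was 0.873 (exact permutation p = 0.0060, adjusted 0.045) and rho 0.762 (exact p = 0.0368, adjusted 0.138). Between Tek and Cldn5 r was 0.831 (exact permutation p = 0.0101, adjusted 0.0507) and rho 0.714 (exact p = 0.0576, adjusted 0.173). These 3 pairs kept r of 0.925, 0.859 and 0.941 over 6 arrays, without the 2 arrays farthest from the median of the first gene named, and of 0.834, 0.828 and 0.768 without VEGF120 replicate 4. Of all tested probe sets, 0.389% were as closely related to Tie1 as Cldn5 was, and 1.30% as closely related to Tek as Cldn5 was. An r this high was uncommon on these arrays, but other probe sets reached it, and these pairs were singled out as the highest in the same values. For Cdh5 1433956_at, 6.25% to 8.30% of all tested probe sets were as closely related to it as Cldn5, Tek and Tie1 were. For Pecam1 with the other probe sets above the brightness filter the share was 10.1% to 16.9%.

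Part of that relation is a shared order of arrays. Wild type replicate 3 and VEGF120 replicates 2 and 3 were the 3 lowest arrays, and VEGF120 replicate 4 the highest, for Cldn5, Tek, Tie1 and Cdh5 1433956_at alike. Of all tested probe sets 2.67% had the same 3 arrays lowest, and 1.22% had the same highest array as well. Since 1 wild type array and a pair of VEGF120 arrays were low together, the order ran across the genotypes. It was noticed in these values and is given as a description. VEGF120 replicate 4 was also the highest array for 21.3% of all tested probe sets.

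By rank the closest pair of the 15 was Cdh5 1433956_at with Tek, at a rho of 0.952 (exact p = 0.00114, adjusted 0.0171). Over all 8 arrays Cdh5 1433956_at had r of 0.653 with Tek (exact permutation p = 0.0798, adjusted 0.186), 0.635 with Tie1 (exact p = 0.0141, adjusted 0.053) and 0.672 with Cldn5 (exact p = 0.0869, adjusted 0.186). Without VEGF120 replicate 4 the r with Tek was 0.835, beside 0.834 for Tie1 with Cldn5, while it was 0.573 with Tie1 and 0.492 with Cldn5. Pecam1 had r of 0.468 to 0.563 with the other 4 bright probe sets, and 0.220 to 0.306 without VEGF120 replicate 4, so its relation to them rested mainly on that array. Cdh5 1422047_at had r between -0.471 and 0.151 with the other 5, and between 0.250 and 0.600 without VEGF120 replicate 4. Over the 10 pairs of bright probe sets r was positive in 10, with a median of 0.644, or 0.532 without VEGF120 replicate 4. The share of positive pairs among all probe sets was not computed, so nothing is read from this count.

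**Figure D3:**
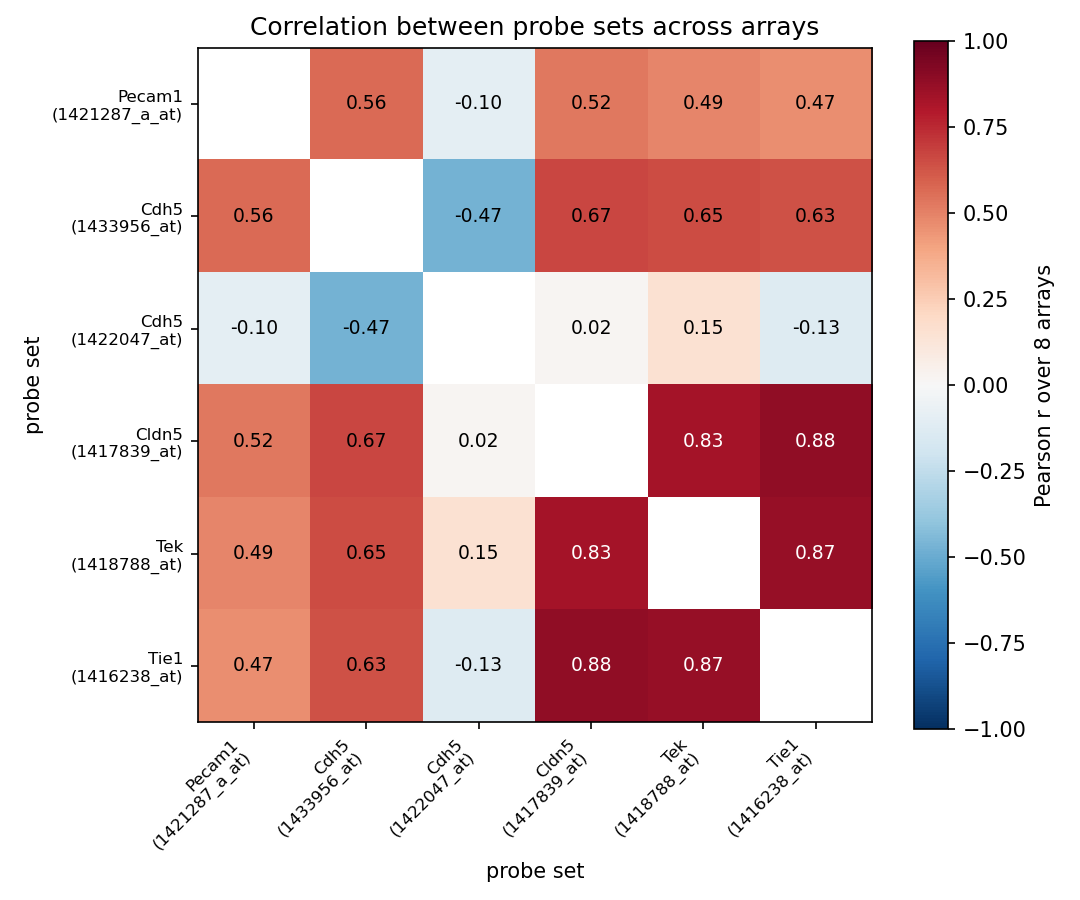
Pearson's r between probe sets over the 8 arrays, written in each square and coloured from blue (-1) to red (1). Tek, Tie1 and Cldn5 form the block above 0.8, and Cdh5 1422047_at is the row near or below 0.

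**Figure D4:**
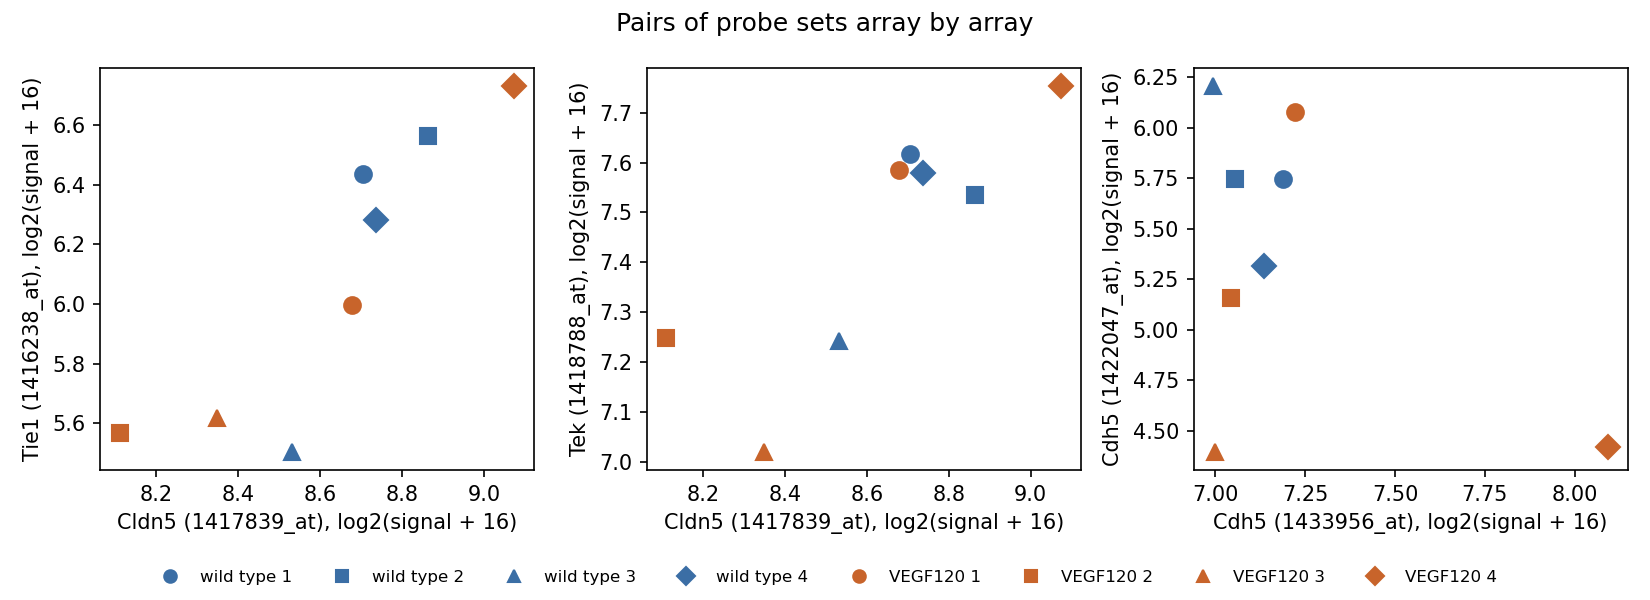
Log2(signal + 16) on each array for Cldn5 against Tie1, Cldn5 against Tek, and the 2 Cdh5 probe sets, with wild type in blue and VEGF120 in orange. In the first 2 plots the arrays of both genotypes lie along 1 rising trend with wild type replicate 3 and VEGF120 replicates 2 and 3 at the bottom, and in the third VEGF120 replicate 4 stands far to the right and low.

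The promoters of Tek, Tie1 and Cldn5 are shown because ETS factors, which bind sites with the core GGAA, are known regulators of endothelial genes. RefSeq promoter sequences on GRCm38.p6 were at hand for 3 of the 5 genes, Tek, Tie1 and Cldn5. The lines give the 250 bases before the annotated start, 5′ to 3′ on the gene's strand, with each GGAA or its reverse complement TTCC in capitals. Tek lies at chr4:94739039-94739288 (plus strand), Tie1 at chr4:118489850-118490099 (minus strand) and Cldn5 at chr16:18776597-18776846 (plus strand).
Tek: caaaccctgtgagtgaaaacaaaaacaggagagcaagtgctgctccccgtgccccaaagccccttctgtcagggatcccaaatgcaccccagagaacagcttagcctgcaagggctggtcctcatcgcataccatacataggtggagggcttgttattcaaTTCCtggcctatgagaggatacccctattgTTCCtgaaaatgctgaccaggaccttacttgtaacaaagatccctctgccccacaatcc
Tie1: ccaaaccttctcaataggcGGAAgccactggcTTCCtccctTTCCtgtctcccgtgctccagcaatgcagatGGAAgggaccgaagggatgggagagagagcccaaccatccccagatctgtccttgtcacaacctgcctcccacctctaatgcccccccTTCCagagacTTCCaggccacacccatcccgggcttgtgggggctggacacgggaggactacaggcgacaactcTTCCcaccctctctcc
Cldn5: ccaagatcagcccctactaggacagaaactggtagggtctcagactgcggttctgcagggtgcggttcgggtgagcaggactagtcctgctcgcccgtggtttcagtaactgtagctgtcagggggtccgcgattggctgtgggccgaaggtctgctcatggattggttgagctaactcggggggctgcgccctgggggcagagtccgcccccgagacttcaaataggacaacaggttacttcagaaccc

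GGAA was found 7 times in the Tie1 window, 2 times in that of Tek and 0 times in that of Cldn5, counting both strands. At least 1 match is present in 93.4% of 27025 promoter windows of that length, and at least 7 in 3.77%. The longer ETS-type word CAGGAA, which contains GGAA, matched 2 times in Tek, where 4.17% of windows have as many, and 1 time in Tie1, where 25.4% have. AGGAAG, which also contains GGAA, matched 1 time in Tie1 and is in 29.2% of windows. The E-box CANNTG matched 2 times in Tek, where 31.7% of windows have as many, and 1 time in Tie1, where 66.0% have. ACAAT, a core of SOX sites, matched 2 times in Tek, where 6.84% have as many. The word AGATAA, read by GATA factors, is present in 10.3% of windows, and the forkhead word TGTTTAC in 3.09%, and neither had a match in the 3 windows, and none of the 7 words matched in Cldn5. A match is a string of letters and no evidence of binding.

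Array measures of RNA quality and brightness had a positive r with these probe sets, but no relation passed adjustment and each rho was lower. The mean of the 5 bright probe sets, each centred and scaled to its own SD, was highest on VEGF120 replicate 4 at 1.55 and lowest on VEGF120 replicate 3 at -0.979. Over the 8 arrays its r was 0.702 with the β-actin 3′ to 5′ ratio (exact permutation p = 0.0587, 0.235 adjusted over 4 array measures), with rho of 0.286 (exact p = 0.501, adjusted 0.935), and r was 0.285 over 6 arrays without the 2 farthest in that ratio. With the Gapdh ratio r was 0.598 (exact permutation p = 0.124, adjusted 0.249) and rho 0.0476 (exact p = 0.935, adjusted 0.935), and r turned to -0.278 over 6 arrays. With the array's median signal r was 0.440 (exact permutation p = 0.275, adjusted 0.297; rho 0.214, exact p = 0.619, adjusted 0.935), and -0.543 over 6 arrays. With the first principal component it was 0.429 (exact permutation p = 0.297, adjusted 0.297; rho 0.143, exact p = 0.752, adjusted 0.935), and 0.0328 over 6 arrays. These relations shrank or turned without the 2 arrays most extreme in each measure. Leaving those out narrows the range of the measure, so nothing is read from the lower r. The part of these array measures in the values of the vessel genes was not tested.

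Markers of other cell types could be set beside these values only where the authors' deposited table names a probe set, and all such probe sets were chosen by the study for a difference on these samples. Of 143 further genes in 10 lists, covering other endothelial genes, angiopoietins, tight and adherens junctions, pericytes, erythroid cells, macrophages, head mesenchyme, neuroepithelium and surface ectoderm, 7 were named there, in 3 lists, and the rest are not analysed here. In the head mesenchyme list 4 of 16 genes were named, and all 4 were higher in VEGF120 at an unadjusted limma p under 0.05, beside 6.37% of all tested probe sets. Since the study picked them for a difference on these samples, nothing is read from that count. Prrx1, a homeobox factor of that tissue, differed by 0.76 ± 0.16 (SE, log2 signal), Six2 by 0.70 ± 0.16 and Alx1 by 1.05 ± 0.24, with adjusted p of 0.459 for each in limma. Their r with the mean of the 6 vessel probe sets was -0.285, -0.0272 and 0.052 over 8 arrays, given as a description. In the neuroepithelium list 2 of 16 were named, Sp8, a factor of the anterior forebrain, and Dlx1, of the ventral forebrain, with mean log2 signals of 8.78 and 6.07 in wild type and differences of -0.66 ± 0.16 and 0.79 ± 0.20 (SE). In the adherens junction list 1 of 12 was named, the scaffold protein gene Lin7c, at -0.54 ± 0.15. Limma's adjusted p for these 3 was 0.459 to 0.461.

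Among the 100 bright probe sets with a name, those most like the mean of the 6 vessel probe sets over the 8 arrays were Gprc5b, an orphan receptor (r = 0.795), Lin28a, an RNA-binding protein of early progenitors (r = 0.780), Mgmt, a DNA repair enzyme (r = 0.654), Marf1 (r = 0.643) and Pax3, a dorsal neural tube factor (r = 0.629). Over all tested probe sets 2.10% had an r at least as high as Gprc5b and 8.48% at least as high as Pax3. Among the least like were Lipo3 (r = -0.600), the corepressor gene Rcor2 (r = -0.579), the homeobox gene Cux1 (r = -0.522) and Kbtbd8 (r = -0.475). These names come from probe sets picked for a difference between the genotypes, so closer neighbours without a name here may exist.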

How the data were processed

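The authors deposited linear MAS5 intensities, 1 for each probe set on each array, and the submitters' processing notes name Affymetrix Expression Console as the software, with no version. The 2% trimmed mean was 250 on every array. No pair of arrays shared more than 0.00443% of its values, so all 8 were kept as separate samples. The authors' deposited table of differences gives unsigned fold changes and unadjusted p-values from PLIER summaries, per the file headers. It served only for names and membership: 251 of its 330 probe sets carried 1 symbol, and 219 Entrez identifiers were matched to a RefSeq gene table of GRCm38.p6. Its 12 columns of per-array values match no sample label and were not used. The gene of each of the 6 probe sets comes from the list that defines them.

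Tests ran on log2(signal + 16), a scale on which changes of dim probe sets come out too small. The 64 controls and every probe set whose mean signal lay below the 40th percentile stayed out of the fit. Limma 3.58.1 under R 4.3.3 (lmFit, eBayes with an intensity trend, 95% intervals) tested VEGF120 against wild type without a replicate block, with Benjamini-Hochberg adjustment over 27022 probe sets at a threshold of 0.05. For single values the test was an exact two-sided permutation, where 4 against 4 cannot go below 0.0286. Pearson's and Spearman's correlations were tested over all orders of the arrays (two-sided). The fit was tested on simulated arrays. Plots used matplotlib 3.10.9 and Python 3.11.15. Deviations from the genotype means correlated over 0.1 for 1 of the 4 pairs of arrays that share a replicate number, so the numbers were not treated as pairs.

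The members, lists and tests were chosen with earlier results of these data known. Genes named are the 6 probe sets, up to 5 members of each marker list that the authors' table names, and the 5 named bright probe sets most and least like the members. A few genes that the rule reaches are not reported here by name. Alternatives changed the added value, the scaling, the filter, the model of variance, weights for arrays, a block for replicate number, the test and the arrays included. The number of arrays limits the precision throughout.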

Additional observations from a re-analysis of the deposited data

How the results depend on the processing

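Over 19 alternatives the 6 differences gave 114 values, of which 0 passed the adjusted threshold (lowest adjusted p 0.364) and 112 kept their direction. The exceptions were Cdh5 1433956_at at -0.00588 without VEGF120 replicate 4 and Tek at 0.0363 without VEGF120 replicate 3. The direction is fixed by construction under the filter, variance model, replicate block and unpaired test. With 1 array left out the differences ranged from 0.174 to 0.464 for Pecam1, -1.10 to -0.538 for Cdh5 1422047_at, -0.00588 to 0.359 for Cdh5 1433956_at, -0.208 to 0.0363 for Tek, -0.469 to -0.0804 for Tie1 and -0.330 to -0.00911 for Cldn5, and their median from -0.269 (without VEGF120 replicate 4) to -0.0245. The median was -0.176 after quantile normalization and -0.247 after median centring of the arrays. That step takes out 0.12 (log2) between the genotypes and moves the median of all tested probe sets from 0.0416 to -0.0813. Probe sets of the 6 at an unadjusted p under 0.05 numbered 1 after quantile normalization and 1 after median centring, and 0 to 1 with an array left out (1 without VEGF120 replicate 1); in each case this was the dim Cdh5 1422047_at. Probe sets past the adjusted threshold ranged from 0 to 1 with an array left out (1 without VEGF120 replicate 1). The count of all tested probe sets at an unadjusted p under 0.05, 2645, fell to 1639 when wild type replicate 3 was dropped and reached 3249 when VEGF120 replicate 1 was, these being the extremes over single arrays dropped. It was 3707 after median centring and 3587 with no brightness filter. Of the 15 correlations 2 passed adjustment, and 4 passed with 64 added and 6 on deviations from the genotype means. For the deviations the permutation took no account of the means removed, so its p-values are too small and that count may run high. With 1 array left out 0 to 1 passed, on 7 arrays, so the adjusted calls rest on all 8 arrays. The r of the 3 pairs among Tek, Tie1 and Cldn5 stayed between 0.768 and 0.947 with any 1 array left out. The within-array Cdh5 ratio passed only without VEGF120 replicate 1, at -1.38 (-1.38 to -0.540 over arrays left out). With the replicate block 0 probe sets passed, 0 of the 6 were at an unadjusted p under 0.05, the median difference was -0.124 and no call changed. Leaving out both replicates numbered 4 and the alternatives for the Cdh5 ratio were chosen after seeing the data; the former gave 1601 probe sets at an unadjusted p under 0.05. Apart from the arrays and probe sets that an alternative removes, the cause of these shifts was not tested. Low signal limits Cdh5 1422047_at, which lies under the filter, and also Tie1 and Pecam1. These lie not far above it, at percentiles 48.1 and 52.7 of mean signal.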
